A study of Homo sapiens with 10 samples.

Results

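Intermediate filament genes were taken as every row of the deposited count table named as a numbered keratin (KRT followed by digits and at most 1 letter), together with vimentin (VIM), desmin (DES), nestin (NES), GFAP, peripherin (PRPH), alpha-internexin (INA), the neurofilament genes NEFL, NEFM and NEFH, synemin (SYNM) and the lamin genes LMNA and LMNB2. This gave 67 of the 25370 rows, of which 55 are keratins and 12 are the other genes. Reads were counted for 58 of the 67, and 30 of them, 20 keratins and 10 others, had enough reads to be tested. The lines compared were 4 clones of the ovarian carcinoma line PEO1 selected by 6 months of continuous growth in veliparib at 40 µM, and parental PEO1, whose genotype is labelled WT.

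Intermediate filaments are rope-like polymers that give cells mechanical strength. Keratins are the filaments of epithelial cells and form only as pairs of an acidic type I and a basic type II keratin; KRT8 with KRT18, joined by KRT7 and KRT19, make up the filaments of simple, single-layered epithelia, whereas other pairs belong to stratified epithelium, hair and nail. Vimentin, a type III protein that polymerizes by itself, is the filament of fibroblasts and other mesenchymal cells, nestin is a large filament protein of progenitor and dividing cells, and the lamins line the inside of the nuclear envelope in nearly every cell.

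RNA was measured by sequencing of polyA RNA in 2 libraries each of the clones ABTr1, ABTr2, ABTr3 and ABTr4 and of parental PEO1. Veliparib inhibits PARP enzymes of DNA repair, and the study concerns acquired resistance to it; the clones, labelled veliparib resistant, were taken off the drug 4 to 5 days before RNA was collected. Each line is a single cell population represented by 2 libraries, all lines carry the same cell line background and were grown in the same serum-containing medium with insulin, and nothing in the labels says that the 2 libraries of a line came from separate cultures, so the tests speak to library-to-library spread, which may be technical. Descriptions and titles number the clones differently, and lines are named here by their titles.

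Library totals ran from 20640602 to 55488566 counts. The 67 genes took 0.363% to 0.455% of all counts in the clone libraries, against 0.944% and 1.36% in the parental libraries. All 9 epithelial marker genes examined (EPCAM, CDH1, CLDN3, CLDN4, CLDN7, ELF3, ESRP1, ESRP2 and OCLN) were lower in the clones, with summed levels of 201 to 486 CPM (counts scaled to the TMM-adjusted library total) in the clone libraries against 1989 and 4071 CPM in the parental libraries. The labels call the cells epithelial. EPCAM, at 69.4 to 187 CPM in the clones against 544 and 543 CPM in parental PEO1, was read in every library. Its fall (log2 change -2.37) was among the smaller of the 9, which ran from -1.92 for ESRP2 to -8.92 for ESRP1. CDH1 was at 0.0430 to 9.56 CPM in the clones against 147 and 358 CPM in parental PEO1. ESRP1 was at 0.0615 to 3.90 CPM in the clones against 203 and 293 CPM in parental PEO1. Of 5 serous lineage markers 4 were tested and 3 called, in both directions, where 16.0% of all tested genes were called. MUC16 (log2 change -7.42 ± 0.93 SE, edgeR adjusted p = 0.0015) and WT1 (log2 change -3.05 ± 0.70 SE, edgeR adjusted p = 0.021) were lower and MECOM was higher (log2 change 5.34 ± 0.59 SE, edgeR adjusted p = 0.00093), while PAX8, the most read, was not called (log2 change 0.10 ± 0.24 SE, edgeR adjusted p = 0.81). In bulk RNA, fewer cells of a type and less RNA per cell cannot be told apart.

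Most tested keratins fell, and vimentin and nestin rose. Of the 30 tested genes, 18 differed between the mean of the 4 clones and parental PEO1 at an edgeR adjusted p under 0.05, 3 of them higher (VIM, NES and KRT2) and 15 of them lower, all 15 keratins. Across all 16490 tested genes the same test called 16.0%, with 7.17% higher and 8.79% lower. The median log2 fold change was -1.0 over the 30 genes and 0.02 over all tested genes. The 3 genes that had no parental read lie above the median of the 30 even at their lower bound, so setting them there could not change it. The epithelial markers moved with the keratins, and their part in the keratin result was not tested. These counts lean on the filter for low counts, since KRT83, KRT4 and KRT13 passed it only through the parental libraries and NES, KRT2, KRT78, PRPH, GFAP, DES and NEFM only through the clones. In all 15 keratins that fell, every clone library lay below both parental libraries, and VIM, NES, KRT2 and DES lay above them in every clone library. Over all tested genes, called or not, 12.5% lay wholly below and 14.5% wholly above. All of these genes but DES had been called from the same libraries, so the lack of overlap is a description and no separate support. With the replicate number as a block, DES was added to the genes called higher (edgeR adjusted p = 0.012), while all tested genes were then called at 34.6%.

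**Figure D1:**
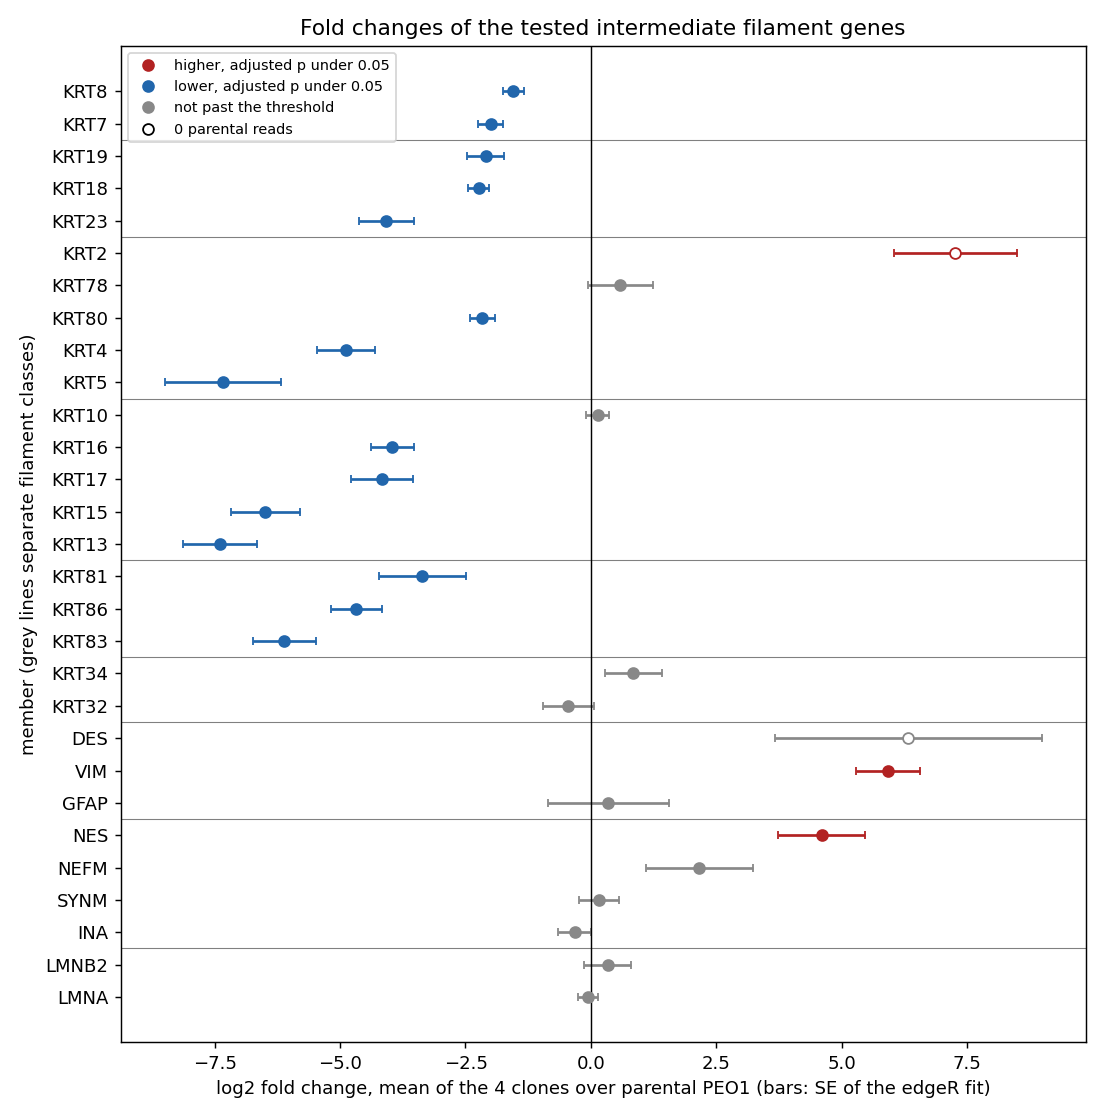
Log2 fold change of the tested intermediate filament genes, mean of the 4 clones over parental PEO1, with standard errors of the edgeR fit, grouped by class (PRPH, with no usable error, is left out). Red marks genes called higher, blue genes called lower, grey no call and open points genes with no parental read; the 15 falls are all keratins, from -1.55 for KRT8 to -7.40 for KRT13, and VIM, NES and KRT2 are the 3 rises.

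The 4 keratins of simple epithelium carried most of the keratin RNA and all of them fell. KRT7, a type II keratin of ductal and glandular epithelium and a common marker of ovarian carcinoma, lies at chr12:52626954-52642709 of hg19 and was measured at 939.8 and 920.0 CPM in ABTr1, 886 and 1226 in ABTr2, 677 and 922 in ABTr3 and 583 and 942 in ABTr4, against 2782 and 4279.9 in parental PEO1. Every clone library was well below both parental ones. KRT7 averaged 887 ± 133 CPM over the 4 clones (SD, n = 4 clone means) and 3531 ± 1059 CPM in parental PEO1 (SD, n = 2), a 4.01-fold fall (log2 change -2.0 ± 0.25 SE, edgeR adjusted p = 0.0016). KRT8, the type II keratin laid down first in embryonic epithelium, was at 789 and 882 CPM in ABTr1, 1101 and 1045 in ABTr2, 1043 and 901 in ABTr3 and 1396 and 949.8 in ABTr4, against 2629.7 and 3262 in parental PEO1. It had the smallest fall among the called keratins, 2.93-fold (log2 change -1.55 ± 0.21 SE, edgeR adjusted p = 0.002), again with no overlap between the lines. KRT18, its type I partner, was at 337 and 448 CPM in ABTr1, 486 and 476 in ABTr2, 392 and 417 in ABTr3 and 525 and 389 in ABTr4, against 1691 and 2379 in parental PEO1. The 8 clone libraries of KRT18 stayed within a narrow band, and the fall of 4.71-fold had the smallest p of the set (log2 change -2.24 ± 0.20 SE, edgeR adjusted p = 0.00043). KRT19, the smallest keratin and a type I protein of ducts, was at 526 and 646 CPM in ABTr1, 243 and 536 in ABTr2, 332 and 484 in ABTr3 and 386 and 649 in ABTr4, against 1156 and 2862 in parental PEO1. Its parental libraries lay far apart, though both above every clone library, and the fall (log2 change -2.10 ± 0.37 SE, edgeR adjusted p = 0.0068) lost its call without parental replicate 2 (log2 fold change -1.31, edgeR adjusted p = 0.12).

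KRT23, a further type I keratin of simple epithelia, spread widely within the clones. It was measured at 4.50 and 16.6 CPM in ABTr1, 5.09 and 5.56 in ABTr2, 36.5 and 74.0 in ABTr3 and 0.817 and 4.71 in ABTr4, against 104 and 221 in parental PEO1. ABTr3 retained the highest level and ABTr4 replicate 1 the lowest, all below parental PEO1, and KRT23 fell over the mean of the clones (log2 change -4.08 ± 0.55 SE, edgeR adjusted p = 0.0021; log2 fold change -3.44 without parental replicate 2). KRT20, the intestinal and urothelial type I keratin, had 11 reads in the 8 clone libraries and 6 in the parental ones and was not tested.

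**Figure D2:**
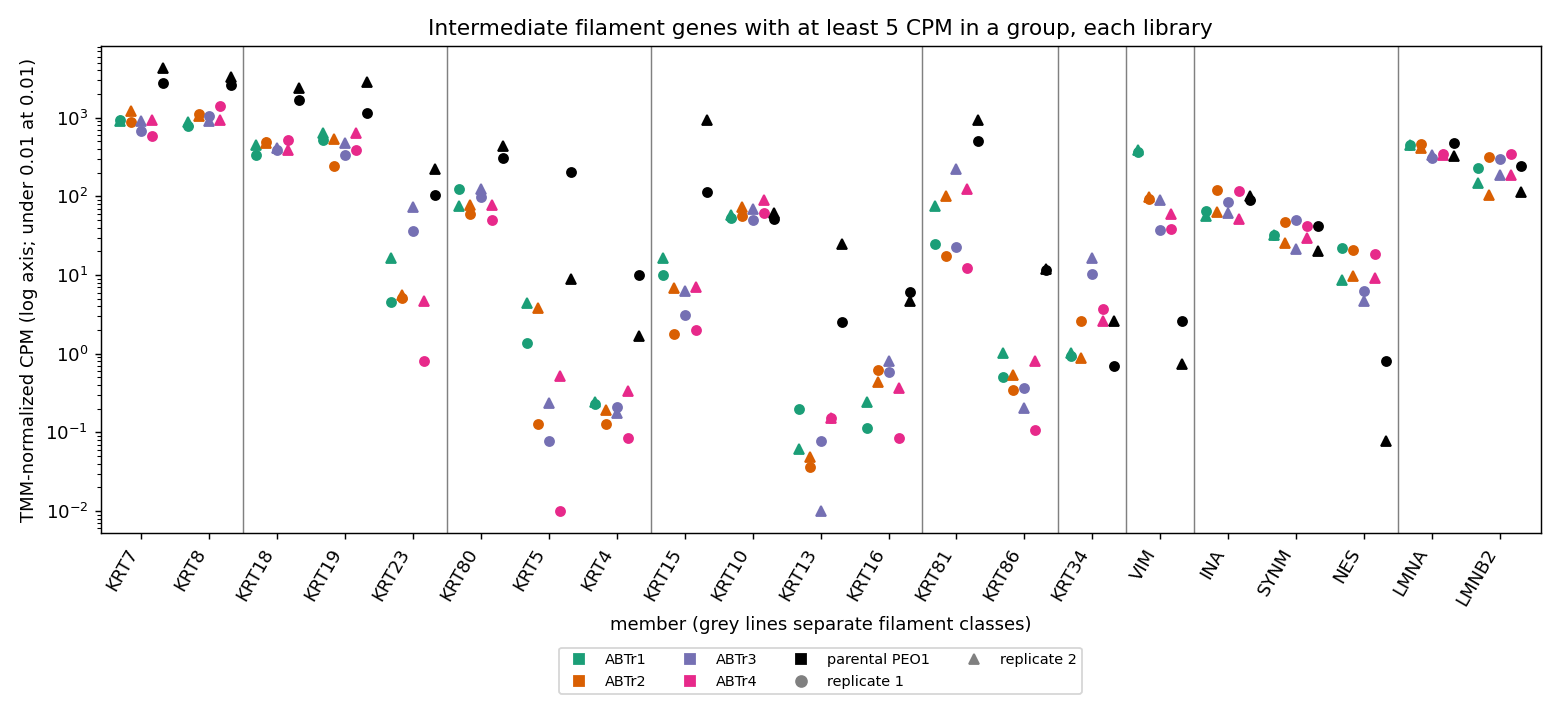
TMM-normalized CPM (log axis) of the main intermediate filament genes in each library, the 4 clones left of parental PEO1. KRT7 is at 583 to 1226 CPM in the clones against 2782 and 4279.9 CPM in parental PEO1, while VIM is at 37.9 to 391 CPM in the clones against 2.60 and 0.735 CPM in parental PEO1.

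Of the keratins of stratified epithelium that fell, all but KRT80 were at 16.2 CPM or less in every clone library. KRT5, the type II keratin of basal cells in layered epithelia, was at 1.39 and 4.43 CPM in ABTr1, 0.127 and 3.77 in ABTr2, 0.0766 and 0.236 in ABTr3 and 0 and 0.523 in ABTr4, against 205 and 8.98 in parental PEO1. The 2 parental libraries were far apart, and the clone libraries were lower than either. KRT5 fell over the mean of the clones (log2 change -7.34 ± 1.16 SE, edgeR adjusted p = 0.0044), but without parental replicate 1 the change was -3.78 with an edgeR adjusted p of 0.094; the value was -8.28 without parental replicate 2, -8.30 without ABTr2 replicate 2 and -8.89 without ABTr4 replicate 2. Its basal partner KRT14 had at most 2 reads in any library. KRT15, another type I keratin of basal cells, was at 10.2 and 16.2 CPM in ABTr1, 1.76 and 6.91 in ABTr2, 3.10 and 6.29 in ABTr3 and 1.98 and 6.99 in ABTr4, against 114 and 938 in parental PEO1. Replicate 2 was higher than replicate 1 in each of the 5 lines, by the widest margin in parental PEO1, and the groups did not overlap. KRT15 fell (log2 change -6.49 ± 0.69 SE, edgeR adjusted p = 0.00076), by 4.28 on the log2 scale without parental replicate 2 and by 7.37 without parental replicate 1.

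KRT4 and KRT13 form the pair of moist stratified linings such as the esophagus. KRT4, the type II partner, ranged from 0.0861 to 0.339 CPM over the 8 clone libraries (median 0.202), against 9.99 and 1.66 CPM in the parental libraries. KRT13, the type I partner, ranged from 0 to 0.198 CPM over the 8 clone libraries (median 0.0691), against 2.55 and 24.8 CPM in the parental libraries. Parental replicate 1 was the higher for KRT4 and parental replicate 2 for KRT13, so the partners did not move together between the parental libraries. KRT4 fell (log2 change -4.88 ± 0.58 SE, edgeR adjusted p = 0.0012), with -3.11 without parental replicate 1 and -5.66 without parental replicate 2. KRT13 fell (log2 change -7.40 ± 0.74 SE, edgeR adjusted p = 0.00061), with -4.99 without parental replicate 2, -8.29 without parental replicate 1 and -8.33 without ABTr3 replicate 1. Blocking on the replicate number put KRT13 at -6.94 and KRT5 at -8.12.

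KRT16 and KRT17 are type I keratins of injured or rapidly growing epithelium. KRT16 ranged from 0.0861 to 0.797 CPM over the 8 clone libraries (median 0.402), against 6.17 and 4.72 CPM in the parental libraries, a fall of 15.5-fold (log2 change -3.96 ± 0.43 SE, edgeR adjusted p = 0.00087). KRT17 ranged from 0.0616 to 0.386 CPM over the 8 clone libraries (median 0.282), against 1.04 and 6.23 CPM in the parental libraries. It fell (log2 change -4.17 ± 0.62 SE, edgeR adjusted p = 0.0033), with -2.38 and an edgeR adjusted p of 0.096 without parental replicate 2, and -5.00 without parental replicate 1. Reads of KRT16, KRT17 and KRT14 can be exchanged between these closely related genes and their pseudogenes, so the share of each is uncertain. The pseudogene rows KRT16P1, KRT16P2 and KRT16P3 held 3, 4 and 0 reads over all libraries. Of their type II partners, KRT6A had 5 reads in the clone libraries against 32 in the parental ones and KRT6B 10 against 14, both below the filter.

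KRT80, a type II keratin of differentiating layers and of desmosome-bearing cell edges, had the highest mean TPM (reads divided by gene length and scaled to a common total) of the stratified type II keratins, 57.1 TPM over the clones and 206 TPM in parental PEO1. By library it was at 122 and 74.8 CPM in ABTr1, 59.9 and 77.0 in ABTr2, 98.2 and 125 in ABTr3 and 49.8 and 78.6 in ABTr4, against 306 and 443 in parental PEO1. No clone library reached the parental level, and the fall was 4.49-fold (log2 change -2.17 ± 0.25 SE, edgeR adjusted p = 0.001). KRT10, the type I keratin of differentiated epidermis, was at 53.7 and 57.2 CPM in ABTr1, 55.7 and 73.4 in ABTr2, 50.4 and 69.3 in ABTr3 and 61.4 and 88.9 in ABTr4, against 52.3 and 62.3 in parental PEO1. The lines overlapped, and the difference did not pass (log2 change 0.14 ± 0.23 SE, edgeR adjusted p = 0.71). Its epidermal type II partner KRT1 had no read in any library. KRT78, a type II keratin, ranged from 0.215 to 1.01 CPM over the 8 clone libraries (median 0.666), against 0.645 and 0.0774 CPM in the parental libraries, without passing the test (log2 change 0.59 ± 0.65 SE, edgeR adjusted p = 0.59).

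KRT2, the type II keratin of upper epidermal layers, was the only keratin called higher over the mean of the clones, at very low level. It was at 0.424 and 0.646 CPM in ABTr1, 0.436 and 0.918 in ABTr2, 0.230 and 0.177 in ABTr3 and 0.602 and 1.29 in ABTr4, against 0 and 0 in parental PEO1. In reads, the 8 clone libraries held 167 and the 2 parental libraries none, so that the level in the clones was at least 11.9-fold higher when 3 reads are allowed over the parental group. The test called it (edgeR adjusted p = 0.0078), and its mean of 0.614 TPM compares with 1153 TPM for KRT8 in the same libraries.

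Of the keratins of hair and its root sheath, KRT81 had the most reads, 64404 over all libraries, followed by KRT34 with 1682; KRT86 and KRT83, neighbours of KRT81, had 907 and 279. KRT81 was at 24.5 and 74.8 CPM in ABTr1, 17.7 and 103 in ABTr2, 22.5 and 222 in ABTr3 and 12.2 and 124 in ABTr4, against 505 and 942 in parental PEO1. In every line replicate 2 was the higher, by the widest margins in ABTr3 and ABTr4, yet the highest clone library stayed below both parental libraries. KRT81 fell (log2 change -3.36 ± 0.87 SE, edgeR adjusted p = 0.033), but the call was lost without ABTr1 replicate 1 (edgeR adjusted p = 0.074), ABTr1 replicate 2 (0.054), ABTr3 replicate 1 (0.052), parental replicate 1 (0.059) or parental replicate 2 (0.19). The log2 change was -3.98 with the replicate block and also without ABTr4 replicate 2, and -3.97 without ABTr3 replicate 2. KRT86 ranged from 0.108 to 1.02 CPM over the 8 clone libraries (median 0.436), against 11.5 and 11.8 CPM in the parental libraries and fell (log2 change -4.68 ± 0.51 SE, edgeR adjusted p = 0.00086). KRT83 ranged from 0 to 0.123 CPM over the 8 clone libraries (median 0.0465), against 4.71 and 2.79 CPM in the parental libraries and fell (log2 change -6.11 ± 0.63 SE, edgeR adjusted p = 0.00067), with -7.05 without ABTr3 replicate 1 and -6.86 without ABTr2 replicate 1. KRT81, KRT86 and KRT83 are close copies of each other, so the authors' counting could have shifted reads among them. Their neighbour KRT85 had 2 reads in the clones against 45 in parental PEO1, a depth-adjusted ratio of 0.00953 whose 95% interval, 0.00112 to 0.0365, covers counting error only; KRT85 was too low to be tested. Parental replicate 1 held 44 of the 45 parental reads and parental replicate 2 held 1, so the ratio rests on 1 library.

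Type I hair keratins were at low level throughout. KRT34 was at 0.933 and 1.02 CPM in ABTr1, 2.62 and 0.870 in ABTr2, 10.4 and 16.5 in ABTr3 and 3.70 and 2.59 in ABTr4, against 0.694 and 2.59 in parental PEO1. Only the 2 ABTr3 libraries stood above all others; KRT34 rose in ABTr3 (log2 change 3.05 ± 0.72 SE, edgeR adjusted p = 0.041) and the mean of the clones did not pass (log2 change 0.85 ± 0.57 SE, edgeR adjusted p = 0.36; log2 change 0.14 without parental replicate 1 and 2.07 without parental replicate 2). KRT32 ranged from 0.0966 to 1.05 CPM over the 8 clone libraries (median 0.758), against 0.669 and 1.08 CPM in the parental libraries, with overlap and no call (log2 change -0.45 ± 0.51 SE, edgeR adjusted p = 0.6). KRT33B, below the filter, had 52 reads in the clones against 4 in parental PEO1. The clone reads were uneven, with 0 and 2 in ABTr1, 6 and 0 in ABTr2, 20 and 9 in ABTr3 and 9 and 6 in ABTr4, against 2 and 2 in parental PEO1.

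Vimentin was the type III gene that rose. VIM, at chr10:17270258-17279592 of hg19, was measured at 369.9 and 391 CPM in ABTr1, 93.8 and 97.3 in ABTr2, 37.9 and 89.8 in ABTr3 and 38.7 and 60.4 in ABTr4, against 2.60 and 0.735 in parental PEO1. ABTr1 was the highest by far, the other 3 clones lay between 37.9 and 97.3 CPM, and both parental libraries were below all of them. VIM averaged 147 ± 157 CPM over the 4 clones (SD, n = 4 clone means) and 1.67 ± 1.32 CPM in parental PEO1 (SD, n = 2), a 60.6-fold rise (log2 change 5.92 ± 0.64 SE, edgeR adjusted p = 0.00086), with a log2 fold change of 7.09 without parental replicate 1 and 5.31 without parental replicate 2. An antisense transcript, VIM-AS1, shares 641 exonic bases with VIM (30.0% of its length) and had 386 to 935 reads in each clone library against 22 and 25 in the parental ones; the library kit does not keep strand, so reads in the shared stretch cannot be told apart. Markers of other cells that make vimentin were read beside it. Of 8 fibroblast markers, DCN, LUM and COL3A1 had no read in any library, and the list summed to 2.45 to 24.6 CPM in the clone libraries against 10.1 and 16.1 CPM in the parental ones. COL1A1, PDGFRB and FAP were tested and not called (log2 changes -0.23, 2.24 and -1.34). PDGFRB was at 0.134 to 1.48 CPM in the clones against 0.124 and 0.155 CPM in parental PEO1. With the replicate block PDGFRB was called higher (edgeR adjusted p = 0.018) and FAP lower (edgeR adjusted p = 0.03). The leukocyte list summed to 73.2 to 146 CPM in the clones against 40.8 and 53.7 CPM in parental PEO1, mostly from CD68, a lysosomal gene (54.5 to 140.1 CPM in the clones against 31.2 and 34.1 CPM in parental PEO1), with CD3D at 0. CD68 was called higher (log2 change 1.55 ± 0.27 SE, edgeR adjusted p = 0.0065), while CD14 and LYZ, also tested, were not called. With the replicate block CD14 was called lower (edgeR adjusted p = 0.0083). Endothelial markers summed to 2.01 to 16.3 CPM in the clones against 15.5 and 62.4 CPM in parental PEO1. CDH5 made up most of the parental sums, at 14.6 and 61.6 CPM, and was called lower (log2 change -4.78 ± 1.00 SE, edgeR adjusted p = 0.015). PECAM1, VWF and KDR went the other way without a call (log2 changes 0.72, 1.69 and 2.14). With the replicate block KDR was called higher (edgeR adjusted p = 0.03), and PECAM1 and VWF were not called. Mesothelial markers summed to 48.0 to 193 CPM in the clones against 88.7 and 222 CPM in parental PEO1, mostly from MSLN (log2 change -0.30 ± 0.41 SE, edgeR adjusted p = 0.67). Within that list LRRN4 was called higher, at 6.65 to 17.6 CPM in the clones against 1.02 and 0.0774 CPM in parental PEO1 (log2 change 4.13 ± 0.81 SE, edgeR adjusted p = 0.011), and UPK3B lower, at 0.645 to 2.55 CPM in the clones against 11.1 and 20.6 CPM in parental PEO1 (log2 change -3.63 ± 0.32 SE, edgeR adjusted p = 0.00037). The part of other cells in the VIM result was not tested beyond these levels.

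The other type III genes stayed near zero. DES, the filament of muscle, had 72 reads in the clones and none in parental PEO1, at least 5.15-fold higher at 3 reads over the parental group, with an edgeR adjusted p of 0.15 and of 0.012 with the replicate block. Its clone values ran from 0.0430 to 1.16 CPM, replicate 2 being the higher in each clone. PRPH, the filament of peripheral neurons, had 39 reads in the clones and none in parental PEO1 and was not called over the mean of the clones in either fit; in ABTr1 alone the edgeR adjusted p was 0.13, and 0.035 with the replicate block; 64.8% of its length overlaps an antisense gene. GFAP, the filament of astrocytes, ranged from 0.0545 to 1.13 CPM over the 8 clone libraries (median 0.497), against 0.595 and 0 CPM in the parental libraries and was not called (log2 change 0.35 ± 1.21 SE, edgeR adjusted p = 0.88).

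Among type IV and related genes, nestin rose. NES was at 21.9 and 8.61 CPM in ABTr1, 20.8 and 9.61 in ABTr2, 6.28 and 4.73 in ABTr3 and 18.6 and 9.21 in ABTr4, against 0.818 and 0.0774 in parental PEO1. All clone libraries were above both parental ones, and replicate 1 was the higher in each of the 5 lines. NES averaged 12.5 ± 4.69 CPM over the 4 clones (SD, n = 4 clone means) and 0.448 ± 0.524 CPM in parental PEO1 (SD, n = 2), and the rise passed the test (log2 change 4.60 ± 0.86 SE, edgeR adjusted p = 0.0093), with a log2 fold change of 7.13 without parental replicate 1 and 3.81 without parental replicate 2. INA, a neuronal filament protein, had the highest mean TPM of the class, 62.5 TPM over the clones and 64.2 TPM in parental PEO1. Its libraries were at 65.2 and 56.0 CPM in ABTr1, 121 and 62.6 in ABTr2, 84.7 and 62.1 in ABTr3 and 117 and 51.9 in ABTr4, against 89.7 and 102 in parental PEO1. The lines overlapped and INA did not pass (log2 change -0.32 ± 0.33 SE, edgeR adjusted p = 0.55). SYNM, which links filaments to other structures, ranged from 21.3 to 50.0 CPM over the 8 clone libraries (median 32.2), against 42.0 and 20.4 CPM in the parental libraries with overlap (log2 change 0.16 ± 0.40 SE, edgeR adjusted p = 0.82). NEFM, the medium neurofilament, ranged from 0.0383 to 1.32 CPM over the 8 clone libraries (median 0.200), against 0.0992 and 0 CPM in the parental libraries and was not called over the mean of the clones (log2 change 2.16 ± 1.07 SE, edgeR adjusted p = 0.21; log2 change 6.31 without parental replicate 1 and 1.39 without parental replicate 2); NEFL had 22 reads in the clones and none in parental PEO1, and NEFH, the heavy neurofilament, 53 reads against 9, both untested.

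The nuclear lamins did not pass the test in either direction. LMNA, which encodes lamins A and C, was at 454 and 455 CPM in ABTr1, 469 and 412 in ABTr2, 304 and 336 in ABTr3 and 351 and 339 in ABTr4, against 471 and 331 in parental PEO1. It overlapped between the lines (log2 change -0.06 ± 0.20 SE, edgeR adjusted p = 0.88). LMNB2, a B-type lamin, was at 231 and 148 CPM in ABTr1, 319.6 and 105 in ABTr2, 301 and 187 in ABTr3 and 343 and 189 in ABTr4, against 245 and 113 in parental PEO1, with replicate 1 the higher in each line and no call (log2 change 0.34 ± 0.47 SE, edgeR adjusted p = 0.68). The ratio of LMNA to LMNB2 TPM was 1.15 to 4.43 in the clones against 2.18 and 3.31 in parental PEO1 (two-sided exact permutation p = 0.533).

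Summed as TPM, keratin RNA was lower in the clones by an amount far above the vimentin gain. All 54 classed keratins together had 4567 and 4824 TPM in ABTr1, 4077 and 4394 in ABTr2, 4061 and 4145 in ABTr3 and 4218 and 4198 in ABTr4, against 12071 and 17811 in parental PEO1. The 8 clone libraries lay within a narrow range far below both parental libraries, a log2 ratio of -1.79 for the means. The type III genes made up 9.87% and 9.31% of the summed cytoplasmic filament TPM in ABTr1, 2.69% and 2.27% in ABTr2, 1.20% and 2.30% in ABTr3 and 1.08% and 1.55% in ABTr4, against 0.0258% and 0.00393% in parental PEO1. Keratins were the main filament RNA in every clone library. VIM stood at 0.0530 to 0.789 times the KRT18 level by TPM in the clones, nearest to it in ABTr1, against 0.00111 and 0.000222 times in parental PEO1. KRT7, KRT8, KRT18 and KRT19 together were 87.2% to 96.7% of keratin TPM in the clones against 89.0% and 85.4% in parental PEO1.

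Over the clones the order of mean level was KRT7 at 1332 ± 220.3, KRT8 at 1153 ± 104, KRT19 at 828 ± 219.7 and KRT18 at 727 ± 34.0 TPM (SD, n = 4). In parental PEO1 it was KRT7 at 4441 ± 980.5, KRT19 at 2888 ± 1536, KRT18 at 2845 ± 451 and KRT8 at 2802 ± 197 TPM (SD, n = 2). In both orders neighbouring genes overlapped within 1 SD of their means, except KRT8 and KRT19 in the clones, which lay just apart. KRT18 relative to its partner KRT8 stood at 0.555 to 0.749 by TPM in the clones against 0.949 and 1.08 in parental PEO1. The ranges did not overlap, and the two-sided exact permutation p was 0.0444, the smallest that 8 against 2 libraries allow. Adjusted over the 4 ratios examined it was 0.178. The permutation treats the 2 libraries of a line as independent, so its p does not measure spread between clones. The type I to type II keratin ratio (p = 0.222) and the KRT19 to KRT7 ratio (p = 0.889) did not pass the exact permutation test.

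**Figure D3:**
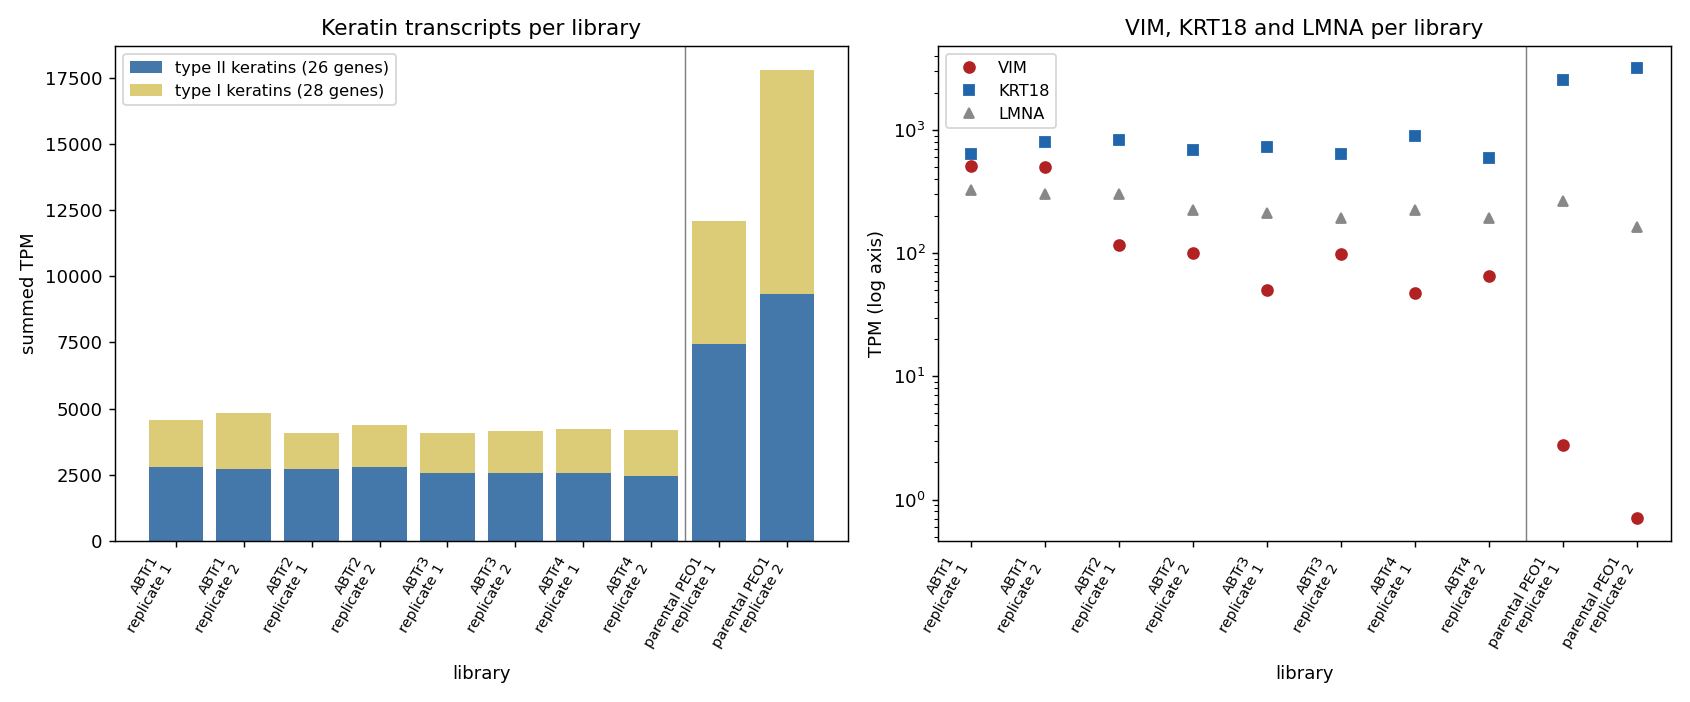
Left, summed TPM of type II and type I keratins in each library, stacked; right, TPM of VIM, KRT18 and LMNA in each library on a log axis, with the clones left of parental PEO1. Keratins sum to 4061 to 4824 TPM in the clone libraries against 12071 and 17811 TPM in parental PEO1, and VIM comes nearest to KRT18 in ABTr1.

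Promoter sequence was available for 41 of the 67 genes, among them 3 of the 15 that fell (KRT4, KRT5 and KRT8) and all 3 that rose; KRT7 and KRT13 were without an entry. The 250 bases upstream of the first listed start of each gene came from RefSeq on GRCh38.p14. Other starts were not searched. Judged by the offset between builds at KRT2, KRT4 and KRT5, the KRT8 window lies inside the counted gene and not at its 5′ end. Both strands were searched for TATAAA and for the E-box core CACCTG, the word bound by ZEB and SNAIL family repressors. On the other strand the E-box core reads CAGGTG. The 3 printed belong to the gene with the largest fitted rise among the called, to a basal keratin that fell and to the main mesenchymal filament gene; KRT5 and VIM were chosen after their values were seen. Capitals mark the E-box match, and sequences run 5′ to 3′ on the gene's strand.
KRT2 (chr12:52652212-52652461, minus strand): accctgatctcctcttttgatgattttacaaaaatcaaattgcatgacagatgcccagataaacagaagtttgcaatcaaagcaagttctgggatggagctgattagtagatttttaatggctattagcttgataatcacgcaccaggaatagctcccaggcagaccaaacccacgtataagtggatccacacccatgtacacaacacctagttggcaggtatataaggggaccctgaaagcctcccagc
KRT5 (chr12:52520395-52520644, minus strand): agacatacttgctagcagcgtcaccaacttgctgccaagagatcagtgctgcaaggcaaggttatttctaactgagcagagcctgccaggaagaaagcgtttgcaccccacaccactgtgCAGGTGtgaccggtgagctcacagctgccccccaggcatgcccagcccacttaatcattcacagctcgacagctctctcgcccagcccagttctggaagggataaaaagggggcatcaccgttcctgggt
VIM (chr10:17227991-17228240, plus strand): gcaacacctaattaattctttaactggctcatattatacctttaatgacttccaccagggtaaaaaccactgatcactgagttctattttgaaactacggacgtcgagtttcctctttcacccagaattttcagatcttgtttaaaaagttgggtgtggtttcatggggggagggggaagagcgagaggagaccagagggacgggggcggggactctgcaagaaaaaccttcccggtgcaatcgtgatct

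Of the 6 called genes with a promoter entry, only KRT5 held the E-box word, and none held TATAAA. The KRT8 window is 1 of the 6, although it lies inside the counted gene. Over the 41 promoters the E-box word occurred in 7, against 17.5% of all 35116 promoters, and TATAAA in 21, against 10.7% of all. The 41 promoters had a median of 2 CG dinucleotides against 11 for all promoters, with 8 each in VIM and NES, 6 in KRT5, 3 in KRT4, 2 in KRT2 and 1 in KRT8. A match is a description of these windows and says nothing of which factors bind.

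The keratins sit in 2 dense clusters. The type II cluster on chromosome 12 (chr12:52562780-53346685 in hg19) holds 27 of the keratins, including the type I gene KRT18 at its edge; 24 had reads and 11 were tested, of which 9 fell, KRT2 rose and KRT78 was not called. The type I cluster on chromosome 17 (chr17:38811872-39780882) holds 28, with 22 read and 9 tested, of which 6 fell and KRT10, KRT32 and KRT34 were not called. Genes that fell and genes that did not lay beside each other in both clusters. KRT8 and KRT18, next to each other and on opposite strands, share 135 exonic bases.

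**Figure D4:**
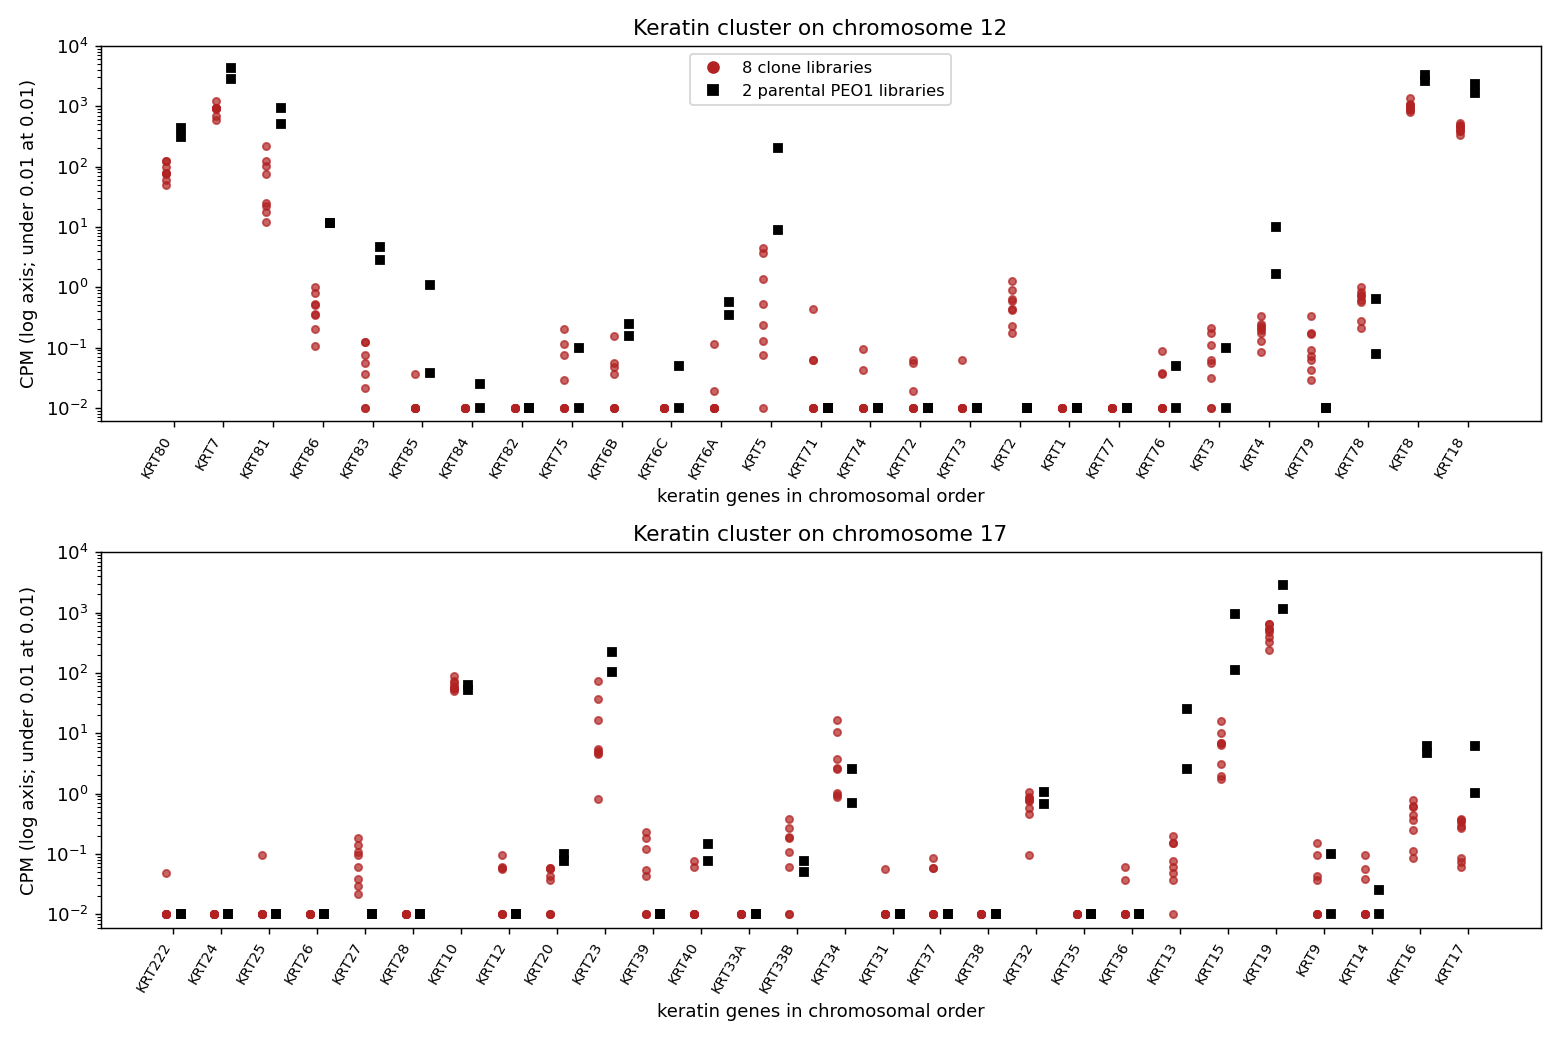
CPM (log axis) of every keratin of the 2 clusters in chromosomal order, 8 clone libraries (red) left of the 2 parental libraries (black); values under 0.01 are drawn at 0.01. KRT7, KRT8, KRT18 and KRT19 are the most read, with the clone points below the parental points, while the points overlap for KRT10 and KRT32 and the clone points of KRT2 lie above.

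Each clone was also compared with parental PEO1 alone. In ABTr1, 14 of the 30 genes were called (9.77% of all tested genes), 3 higher (5.48% of all) and 11 lower (4.29%). In ABTr2, 15 were called (6.11% of all), 3 higher (3.31%) and 12 lower (2.81%). In ABTr3, 16 were called (7.37% of all), 4 higher (3.48%), KRT34 among them, and 12 lower (3.89%). In ABTr4, 16 were called (9.71% of all), 3 higher (4.46%) and 13 lower (5.25%). With the replicate block the counts were 21 in ABTr1 (30.1% of all genes), 19 in ABTr2 (22.1%), 20 in ABTr3 (22.6%) and 19 in ABTr4 (27.0%). These comparisons share the parental libraries. NES, VIM and KRT2 were called higher in all 4 clones, as were 2.08% of all genes, and 10 keratins (KRT7, KRT8, KRT18, KRT80, KRT86, KRT83, KRT4, KRT13, KRT15 and KRT16) lower in all 4, as were 2.10% of all genes. KRT5 was called in ABTr3 and ABTr4, KRT19 in ABTr2 and ABTr3, KRT17 in ABTr4, KRT23 in every clone but ABTr3, and KRT81 in none. With the replicate block these 5 were called lower in all 4 clones and DES higher in all 4, with 6.20% of all genes lower and 6.46% higher in all 4. When single libraries were left out, the count for each clone was lowest without a library of that clone. Such a fit leaves the clone with 1 library, so lost power and reliance on the library left out cannot be told apart.

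The clones were then compared with one another. No gene of the set was called for differences among the 4 clones by edgeR, where 4 (VIM, KRT23, KRT34 and NEFM) had an unadjusted p under 0.05 and 0.00606% of all genes were called; limma-voom called 0 and DESeq2 called VIM, KRT23 and KRT34. With the replicate block, VIM (edgeR adjusted p = 0.033) and KRT23 (edgeR adjusted p = 0.011) were called, at 0.843% of all genes. VIM in ABTr1 exceeded the mean of the other 3 clones in that fit (log2 change 2.52 ± 0.33 SE, edgeR adjusted p = 0.013). KRT15 was likewise higher in ABTr1 (log2 change 1.80 ± 0.35 SE, edgeR adjusted p = 0.036), as was NEFM (log2 change 2.86 ± 0.64 SE, edgeR adjusted p = 0.048), where 2.97% of all genes were called, 2.27% higher and 0.691% lower. In ABTr3, KRT23 (log2 change 3.43 ± 0.30 SE, edgeR adjusted p = 0.0077) and KRT34 (log2 change 2.89 ± 0.45 SE, edgeR adjusted p = 0.041) were higher than in the other 3 clones, where 0.206% of all genes were called, 0.0970% higher and 0.109% lower. In ABTr4, KRT23 was lower (log2 change -2.65 ± 0.41 SE, edgeR adjusted p = 0.035), where 0.546% of all genes were called, 0.0364% higher and 0.509% lower. Without the block edgeR and limma-voom called none of these, while DESeq2 called VIM and KRT34 for ABTr1, KRT23 and KRT34 for ABTr3 and KRT23 for ABTr4 against the other 3 clones. ABTr2 had no call against the other clones in any of these fits, with KRT32 alone at an unadjusted p under 0.05.

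**Figure D5:**
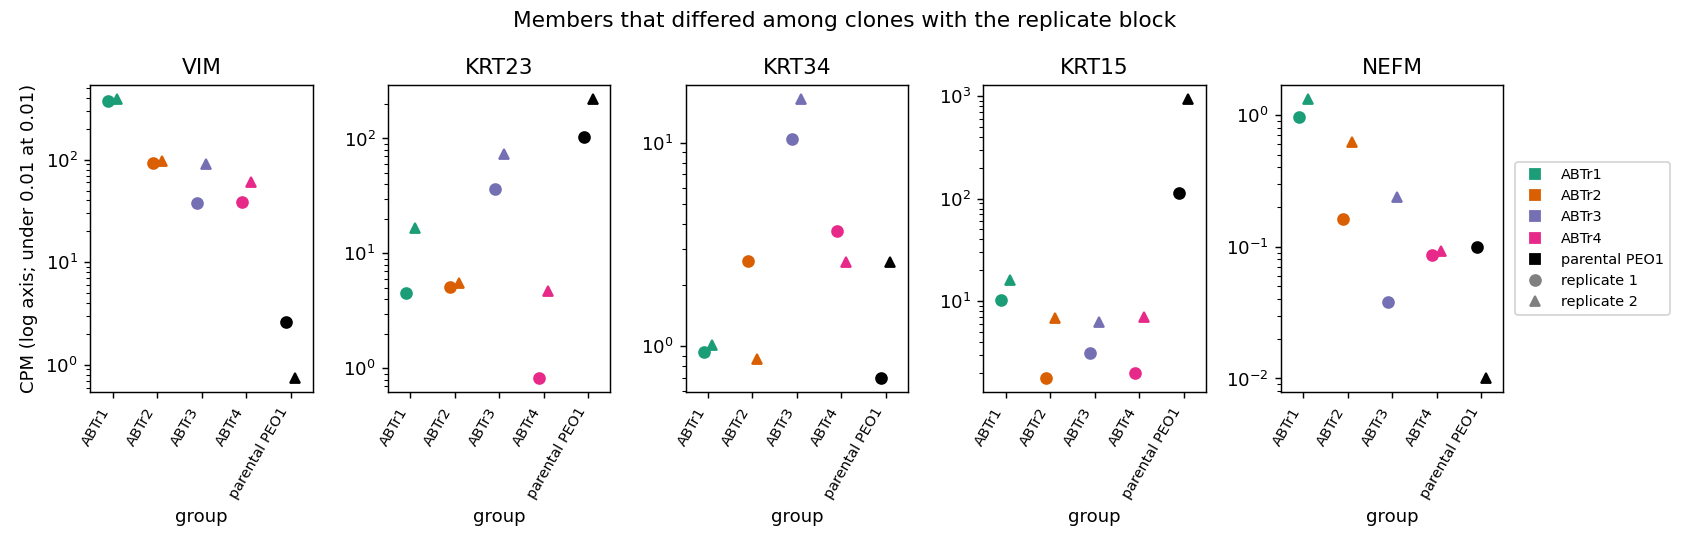
CPM (log axis; values under 0.01 drawn at 0.01) by library of the genes that differed among clones with the replicate block, the 4 clones left of parental PEO1. VIM is highest in both ABTr1 libraries at 370 and 391 CPM, and KRT23 in both ABTr3 libraries, at 36.5 and 74.0 CPM, among the clones.

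Genes whose proteins attach to or organize cytoplasmic filaments were read as a further list of 26 genes, 25 of them tested. Of these 13 were called, 11 lower and 2 higher, or 52.0% against 16.0% of all genes. With the block 17 were called (15 lower, 2 higher), or 68.0% against 34.6% of all genes. DSP, the desmosome plaque protein that anchors keratins, was at 71.3 to 355 CPM in the clones against 511 and 488 CPM in parental PEO1 (log2 change -1.58 ± 0.34 SE, edgeR adjusted p = 0.017). PKP2, a desmosomal plakophilin, was at 19.9 to 35.6 CPM in the clones against 109.6 and 106 CPM in parental PEO1 (log2 change -2.09 ± 0.16 SE, edgeR adjusted p = 0.00019). JUP, the plaque protein plakoglobin, was at 50.5 to 324 CPM in the clones against 509.9 and 777 CPM in parental PEO1 (log2 change -1.89 ± 0.51 SE, edgeR adjusted p = 0.039). The plakins EVPL and EPPK1, the plakophilin PKP3, the keratin-organizing FAM83H and TRIM29, the chaperones HSPB1 and CRYAB, and SFN, a 14-3-3 protein of epithelia, also fell, with log2 fold changes from -1.20 for SFN to -3.82 for EPPK1. IFFO1, an intermediate filament relative, rose (log2 change 4.09 ± 0.71 SE, edgeR adjusted p = 0.0064; 2.45 to 11.5 CPM in the clones against 0.298 and 0.426 CPM in parental PEO1), as did BFSP1, a lens filament protein (log2 change 2.53 ± 0.62 SE, edgeR adjusted p = 0.027; 3.31 to 13.2 CPM in the clones against 1.44 and 0.658 CPM in parental PEO1). PLEC, the linker plectin, did not pass (log2 change -0.06 ± 0.48 SE, edgeR adjusted p = 0.95). Without parental replicate 2, 7 genes of the list were called.

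Lamina partners were called at about the rate of all genes. Of 24 listed genes 23 were tested and 4 were called, or 17.4% against 16.0% of all genes, all 4 lower. With the block 7 were called, 6 lower and 1 higher, or 30.4% against 34.6% of all genes. SYNE4, a nuclear envelope nesprin of epithelial cells that binds a kinesin motor, was at 0.387 to 2.12 CPM in the clones against 10.4 and 16.9 CPM in parental PEO1 and had the largest change (log2 change -3.63 ± 0.38 SE, edgeR adjusted p = 0.00069). ZMPSTE24, the protease that matures prelamin A, was at 88.0 to 135 CPM in the clones against 205 and 246 CPM in parental PEO1 (log2 change -1.01 ± 0.19 SE, edgeR adjusted p = 0.0099). LEMD3, an inner membrane protein (log2 change -0.97 ± 0.24 SE, edgeR adjusted p = 0.028), and RCE1, a protease of prenylated proteins (log2 change -0.71 ± 0.19 SE, edgeR adjusted p = 0.036), fell as well. The count was 1 without parental replicate 2 and 2 without any one of ABTr1 replicate 1, ABTr1 replicate 2, ABTr3 replicate 2 and parental replicate 1.

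The 37 untested genes had few reads. No read was counted for 9 (KRT82, KRT1, KRT77, KRT24, KRT26, KRT28, KRT33A, KRT38 and KRT35), and 13 had 1 to 9 reads over the 10 libraries. The remaining 15 had at most 62 reads each. KRT79, KRT39, KRT27, KRT71 and NEFL were read only in clone libraries, with 34, 27, 25, 13 and 22 reads. KRT75 had 20 reads in the clones against 4 in parental PEO1, KRT3 28 against 4, KRT9 14 against 4 and KRT40 6 against 8.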

How the data were processed

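PolyA RNA was sequenced from 10 libraries, 2 for each of 4 veliparib-resistant PEO1 clones and parental PEO1. Read counts per gene were made by the authors with TopHat2 2.0.14 and featureCounts 1.4.6 of Subread against hg19, per the submitters' processing notes; strand and multi-match settings are not given in the sources used here. Low counts were even more often than odd (55.2% to 58.8% of values from 1 to 10), so both mates of a pair may have been counted, which leaves counting intervals too narrow. The series' design text speaks of 15 samples in 3 experiments, of which 10 libraries were analysed here.

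The deposited counts were filtered with edgeR 4.0.16 (filterByExpr), scaled by TMM and tested by its quasi-likelihood test with a mean per line, two-sided, with Benjamini-Hochberg adjustment over 16490 genes and a threshold of 0.05. SE is that of the log2 fold change. CPM are TMM-scaled; TPM were computed from the deposited gene lengths, without TMM. The fit leaves 5 residual degrees of freedom. Every gene of the set is accounted for. Those with 5 CPM or more in any line's mean, or called, are given in full, and those below the filter with 10 or more reads are named. The genes and lists were chosen with earlier results of these data known. The main fit left the replicate number out, and only the fit named as blocked used it to pair the libraries. Same-numbered libraries deviated together in all 10 pairs of lines (r = 0.372 to 0.826, above the 0.1 required), and the main fit does not account for this. The labels do not say what a number stands for. Ratios were tested by exact permutation over 45 assignments, treating all 10 libraries as independent. On simulated counts for 16217 genes, the mean comparison recovered 8%, 72%, 86% and 96% of 2-, 4-, 8- and 16-fold changes, with 3 false calls of 134. The simulated libraries were independent, with the same change in every clone. The simulation thus leaves out the shared deviation of same-numbered libraries and differences between clones. Alternatives were RLE scaling, DESeq2 1.42.0, limma-voom 3.58.1, no filter, a replicate block, only the lines compared, CPM sums and each library left out. Promoters came from RefSeq (GRCh38.p14). Protein sequences were not used here.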

Additional observations from a re-analysis of the deposited data

Results flagged for a closer look

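In the fit with the replicate block, 8 tests of differences between clones passed an edgeR adjusted p of 0.05; each rests on 2 libraries per clone. VIM differed among the 4 clones with an adjusted p of 0.033 and was higher in ABTr1 than in the mean of the other 3 clones with an adjusted p of 0.013. KRT23 differed among the 4 clones with an adjusted p of 0.011, being higher in ABTr3 than in the other 3 (0.0077) and lower in ABTr4 (0.035). KRT15 (adjusted p = 0.036) and NEFM (adjusted p = 0.048) were higher in ABTr1, and KRT34 was higher in ABTr3 (adjusted p = 0.041). All are from edgeR. Without the block edgeR and limma-voom called none of them. DESeq2 called VIM, KRT23 and KRT34 among the 4 clones, VIM and KRT34 for ABTr1, KRT23 and KRT34 for ABTr3 and KRT23 for ABTr4.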

How the results depend on the processing

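The count of 18 called genes ran from 16 to 20 when each library was left out. Against parental PEO1 the leave-out counts ran from 1 to 16 for ABTr1, from 3 to 14 for ABTr2, from 1 to 16 for ABTr3 and from 7 to 17 for ABTr4. With only the compared lines in the fit, ABTr1 had 9 calls, ABTr2 had 3 and ABTr4 had 5. Among the clones the count was 0 in every leave-out, 3 with DESeq2 and 2 with the replicate block. Filament partners ran from 7 to 14 and lamina partners from 1 to 4 over the leave-outs, with 7 lamina partners under the replicate block. The block changed no other call over the mean of the clones among the 30 genes than that of DES, which DESeq2 also called. The fall of the type II keratin sum was -1.67 on the log2 scale by TPM and -1.90 by CPM.

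Signs reversed in some leave-outs for genes that were not called, over ranges of -0.29 to 0.18 for LMNA, -0.19 to 2.78 for KRT78, -0.27 to 0.74 for SYNM, -0.02 to 0.27 for KRT10, -0.56 to 6.90 for GFAP and -0.12 to 0.96 for LMNB2. All but 3 of the reversals came without 1 of the parental libraries; SYNM was -0.03 without ABTr3 replicate 1, and GFAP was -0.36 without ABTr2 replicate 2 and -0.10 without ABTr4 replicate 2. The cause was not tested. RLE in place of TMM shifted the median of all genes by -0.015 on the log2 scale.

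With 2 libraries per line, a 2-fold change was seldom recovered in simulation, and genes under 1 CPM rest on few reads. KRT81, KRT23, KRT15, KRT19 and KRT10 were higher in replicate 2 of every line, and NES and LMNB2 in replicate 1; what differs between the replicate numbers was not tested. Closely related keratins and antisense overlaps limit the assignment of reads to single genes.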
